A study of Mus musculus with 8 samples.

Results

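The genes described here encode the subunits of the mitochondrial respiratory chain and ATP synthase. They were taken by symbol from the protein-coding genes of the deposited tables: the Nduf subunit genes, Sdha to Sdhd, the Uqcr genes, the Cox4 to Cox8 genes whose number is followed by a, b or c, the Atp5 genes and every protein-coding gene with the prefix mt-. This gave 96 genes of 55665, 83 in the nucleus and 13 on mitochondrial DNA. Of these, 90 had enough counts to be tested, 77 nuclear and all 13 mitochondrially encoded. The 6 others were Cox6a2, Cox7b2, Cox8b, Cox8c, Ndufa4l2 and a second entry for Atp5o, each with at most 2 counts over the 8 libraries. The nuclear genes tested comprised 35 of complex I, 4 of complex II, 8 of complex III, 13 of complex IV and 17 of complex V. Ndufa4 was placed with complex IV, where its protein is found. Cox4i1, Cyc1, Cycs and Ndufab1 lie outside the symbol rule and were counted in a separate list.

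Complexes I and II pass electrons from NADH and succinate to ubiquinone, complex III passes them on to cytochrome c, and complex IV reduces oxygen. Complexes I, III and IV pump protons across the inner membrane, and complex V, the ATP synthase, uses the resulting gradient to make ATP. The subunits come from both genomes: complex II is wholly nuclear, while the other complexes combine nuclear subunits with a few hydrophobic core subunits made inside the mitochondrion. Regulatory T (Treg) cells are known for their reliance on mitochondrial respiration, and T cell receptor (TCR) signals are known to raise mitochondrial biogenesis in T cells.

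All libraries came from mice carrying RosaCas9/+ and Foxp3gfp, that is, a Cas9 allele and a green reporter of Foxp3, the transcription factor that specifies Treg cells. CD4+GFP+ natural Treg (nTreg) cells were sorted from spleen and lymph nodes and cultured. They carried sgNC, a control guide RNA, or sgFoxp3, a guide against Foxp3, and were either mock-treated with DPBS (0 h) or restimulated for 3 h with antibodies to CD3 and CD28. Stranded libraries of total RNA were made, 2 for each of the 4 groups. Nothing in the labels says whether the libraries of a group came from separate cultures or animals, so the p-values below measure only the spread between these libraries. Every cell carried Cas9 and the reporter, and the cells were a guide-treated culture, not a clone.

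Library totals were 38729009 to 94807362 expected counts. Foxp3, the guide's target, stood at 485.76 and 501.26 TPM (a length-corrected transcript level, scaled to 1 fixed total in every library) with the control guide at 0 h and at 44.01 and 44.41 with the Foxp3 guide. At 3 h it stood at 337.14 and 329.81 against 30.72 and 27.89. All 6 Treg markers (Cd3e, Cd4, Foxp3, Il2ra, Ctla4, Ikzf2) were detected in every group. Their summed level was 2450 to 3270 TPM with the control guide and 1130 to 1420 with the Foxp3 guide. This sum includes Foxp3, so part of the difference between the guides is that of the target gene itself. Summed B cell, CD8 T cell, natural killer and myeloid markers reached at most 9.58 TPM. The 5 erythroid markers summed to 22.9 to 42.8 TPM with the control guide and 207 to 240 with the Foxp3 guide, with 2 of the 5 listed at 0 with the control guide at 3 h. Most of the sum with the Foxp3 guide came from 1 gene, which reached 197 TPM at 0 h and 176 at 3 h. The 4 stromal markers summed to 67.9 to 137 TPM at 0 h and 14.3 to 17.4 at 3 h, nearly all of it from 1 gene. Ribosomal protein genes took 5.34% to 5.76% of counts with the control guide and 6.45% to 7.38% with the Foxp3 guide. The part of these shifts in the results below was not tested, and in bulk RNA a change in the number of cells of a type and a change in RNA per cell cannot be told apart.

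The respiratory chain genes were abundant. Summed over the nuclear members, the level was 15170 to 17080 TPM in the 8 libraries. By complex, the sums with the control guide at 0 h were 4356 ± 44.1 TPM (SD, n = 2) for complex I, 469.6 ± 0.573 for II, 1716 ± 37.7 for III, 3365 ± 26.6 for IV and 5358 ± 24.1 for V. Atp5b, the catalytic beta subunit of ATP synthase, was the most abundant nuclear member with a mean of 923 TPM over all libraries, followed by Atp5e, the epsilon subunit, at 619 and Uqcrh, the hinge subunit of complex III, at 507. Within complex I the means ran from 33.9 TPM for Ndufb4 to 272 for Ndufa1, and within complex II from 52.5 for the membrane anchor Sdhc to 131 for the flavoprotein Sdha. The complex IV means ran from 2.72 TPM for Cox7a1, a form typical of muscle, to 456 for Cox6b1. Ndufb4 shares near-identical sequence with the pseudogene Ndufb4c, which took 42.3% to 50.5% of their joint counts, so its level is uncertain.

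The direction of small changes depended on how the libraries were put on one scale. With TMM, the scaling that assumes most genes do not change, the median log2 change over the 16642 genes tested was 0.02 for the Foxp3 guide at 0 h and -0.01 at 3 h, -0.01 for restimulation of control-guide cells and -0.07 of Foxp3-guide cells. On the library total the same medians were -0.08, -0.10, -0.32 and -0.36, and on log2(TPM + 1) they were -0.15, -0.12, -0.20 and -0.18. Each change is therefore given on the TMM scale with its TPM values, and calls that held under all 7 scalings tried are named separately. Calls rest on the quasi-likelihood test of edgeR, with a limit of 0.05 on the p adjusted by Benjamini-Hochberg over all genes tested. The plot of medians by scale shows this dependence.

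**Figure D1:**
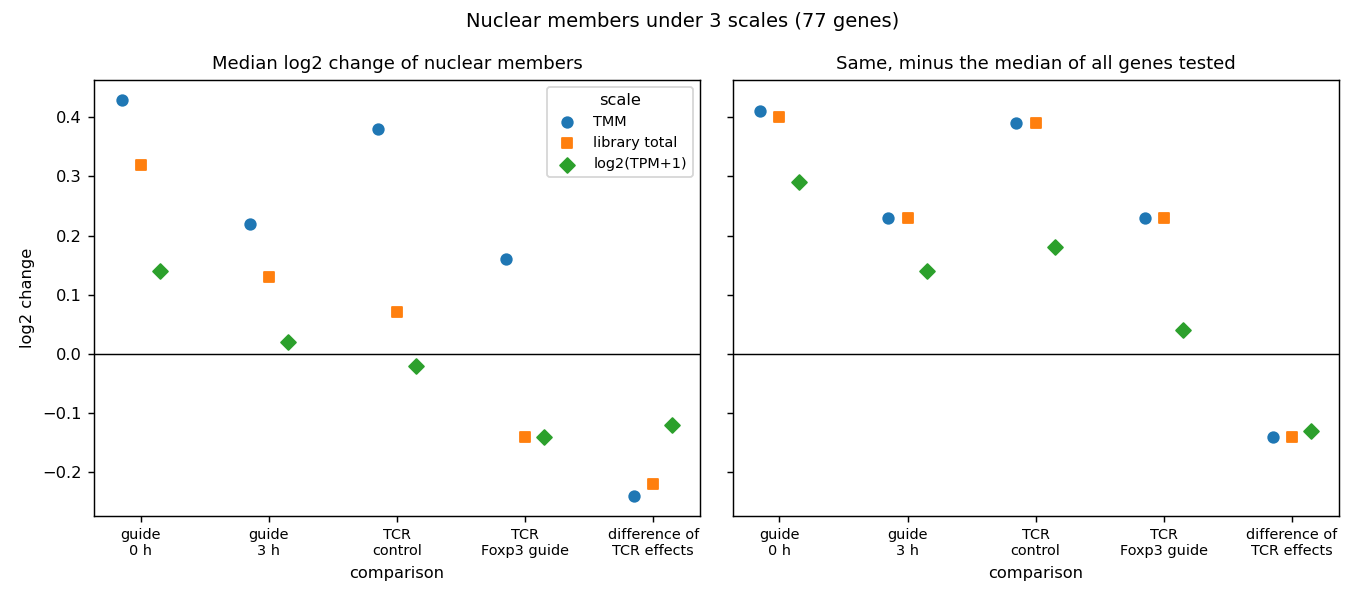
Median log2 change of the 77 nuclear members for 5 comparisons (x axis) on 3 scales (TMM, library total, log2(TPM + 1)). On the left the medians are as fitted: restimulation with the Foxp3 guide gave 0.16 on TMM and -0.14 on the other scales. On the right the median of all genes tested is subtracted, and the first 4 comparisons lie between 0.04 and 0.41.

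Unstimulated cells with the Foxp3 guide had higher levels of most nuclear respiratory chain genes than cells with the control guide. On the TMM scale 71 of the 77 nuclear members were called higher and none lower, with a median log2 change of 0.43. Over all 90 members 78 were called, where 63.3% of all genes tested were called, 34.2% higher and 29.1% lower. Under all 7 scalings 43 nuclear members were called higher and none lower, or 55.8%, against 15.7% of all genes higher and 25.3% lower. On log2(TPM + 1) the nuclear counts were 43 higher and 12 lower with a median of 0.14, where 62.7% of all genes were called, 17.5% higher and 45.2% lower, so the one-sided picture did not hold on that scale. Between the same groups the summed erythroid markers went from 38.0 to 42.8 TPM up to 236 to 240, the stromal markers from 128 to 137 TPM down to 67.9 to 68.6, and the ribosomal protein share of counts was higher, and their part in these changes was not tested.

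By complex, the calls that held under every scaling were densest in complexes V, with 14 of 17, and IV, with 9 of 13. They numbered 15 of 35 in complex I, 2 of 4 in complex II (Sdhb and Sdhd, an iron-sulfur subunit and a membrane anchor) and 3 of 8 in complex III (Uqcr10, Uqcrfs1 and Uqcrq). The difference between complexes was not tested. Cox6a1, the widely expressed form of a nuclear complex IV subunit (chromosome 5, 115345642 to 115348981, GRCm38), stood at 269.2 and 276.01 TPM with the control guide and at 410.65 and 393.56 TPM with the Foxp3 guide. The groups did not overlap, and the log2 change was 0.87 (SE 0.046, adjusted p = 8.1e-14). Ndufc1, a small membrane-arm subunit of complex I, stood at 89.53 and 82.5 TPM against 142.56 and 133.35, again without overlap, with a log2 change of 1.02 (SE 0.076). Cox5a, a matrix-side subunit of complex IV, went from 147.84 and 153.23 TPM to 206.81 and 198.55 (log2 change 0.70, SE 0.046).

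In complex III, Uqcr10, a small subunit, rose from 242.14 and 229.5 TPM to 330.83 and 329.78 (log2 change 0.79, SE 0.046). Among ATP synthase genes, Atp5mpl, a small membrane subunit, rose by 0.79 (SE 0.047), Atp5g3, a c subunit gene, by 0.60 (SE 0.04) and Atp5k, the e subunit, by 0.84 (SE 0.13). All of these were called under every scaling. Sdhc had a log2 change of 0.29 on the TMM scale and -0.06 in TPM, and Sdha, the catalytic subunit of complex II, was not called on the TMM scale (0.03, adjusted p = 0.48, with 175.34 and 173.33 TPM against 145.8 and 145.42). The member farthest from the rest was Cox6b2, described as a testis form of Cox6b. It stood at 11 and 11.08 TPM with the control guide and at 37.23 and 35.09 with the Foxp3 guide, a log2 change of 2.03 (SE 0.12), and made up 2.80% and 6.84% of the summed Cox6b1 and Cox6b2 TPM.

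**Figure D2:**
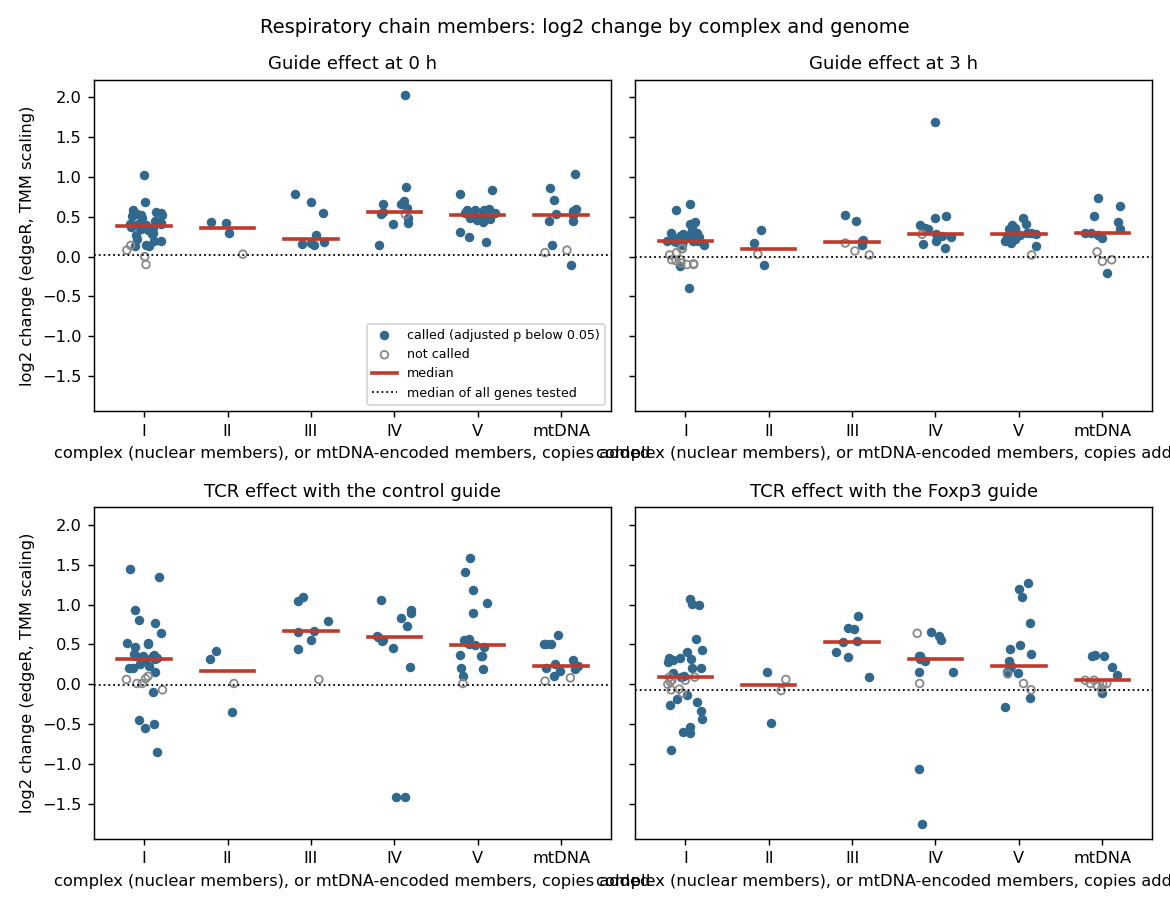
Log2 change (y axis, edgeR with TMM scaling) of each tested member, by complex for nuclear members and together for mitochondrially encoded members with near-identical nuclear copies added, in 4 comparisons. Filled points were called and open points were not, red bars are medians and dotted lines the median of all genes; complex V has a median of 0.52 for the guide at 0 h, and complex III medians of 0.67 and 0.54 after restimulation.

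After 3 h of restimulation the guides still differed. On the TMM scale 57 nuclear members were called higher and 3 lower, with a median log2 change of 0.22, and 66 of all 90 members were called, against 61.5% of all genes (30.7% higher and 30.8% lower). Under all scalings 24 nuclear members, or 31.2%, were higher and 2 were lower, against 13.7% and 23.4% of all genes. In TPM 24 were higher and 13 lower, with a median of 0.02, where 54.1% of all genes were called, 14.8% higher and 39.3% lower. Under all scalings ATP synthase again had the most calls for its size, 8 of 17, all higher, and complex I had 8 higher and 1 lower of 35. In TPM complex I had 8 higher and 10 lower, and ATP synthase 8 higher and 1 lower.

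Ndufa5, an accessory subunit of the matrix arm of complex I, stood at 94.96 and 94.28 TPM with the control guide at 3 h and at 126.03 and 129.48 with the Foxp3 guide (log2 change 0.66, SE 0.053, adjusted p = 1e-10). Cox7a2l, which encodes a factor that joins complexes III and IV into supercomplexes, stood at 152.6 and 155.56 TPM against 188.71 and 191.54 (log2 change 0.51, SE 0.04). Both were higher without overlap. Cox6b2 stood at 2.61 and 3.38 TPM against 8.9 and 9.06, a log2 change of 1.69 (SE 0.17).

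On the TMM scale the nuclear members called lower at 3 h were Ndufs7, Ndufv2 and Sdha. The 13 called lower in TPM also included accessory subunits such as Ndufa6 (-0.24) and Ndufa7 (-0.27). Ndufs7, the complex I subunit that holds the last iron-sulfur cluster before ubiquinone, stood at 105.62 and 111.54 TPM with the control guide and at 72.97 and 71.86 with the Foxp3 guide, and fell by 0.40 on the log2 scale (SE 0.052, adjusted p = 4.5e-07). Sdha stood at 123.6 and 106.55 TPM against 91.24 and 87.43 and fell by 0.11 (SE 0.037). Both held under all 7 scalings, but the change of Sdha was no longer called without control-guide 3 h replicate 1 (-0.08), Foxp3-guide 3 h replicate 1 (-0.11) or Foxp3-guide 3 h replicate 2 (-0.07). Ndufv2, a core subunit near the NADH site, had a log2 change of -0.12 (SE 0.047) that was lost without any 1 of 6 libraries (-0.09 to -0.13; the control-guide 0 h libraries were the exceptions) and was not called with DESeq2, without the gene filter or with replicate number as a block.

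Restimulation moved members in both directions. With the control guide 60 nuclear members were called higher and 8 lower on the TMM scale (median 0.38), and 78 of all 90 members were called, against 81.8% of all genes (40.9% higher and 40.9% lower). With the Foxp3 guide 46 were higher and 15 lower (median 0.16), and 64 members were called, against 85.4% of all genes (40.8% higher and 44.5% lower). In TPM the nuclear counts were 29 higher and 27 lower with the control guide, where 79.9% of all genes were called (29.8% higher and 50.1% lower), and 20 higher and 39 lower with the Foxp3 guide, where 80.3% were called (31.1% higher and 49.2% lower). The shares called on the TMM scale lie near or below the background, so what the members show is their direction and identity. Under all scalings 29 were higher and 8 lower with the control guide, against 28.6% and 36.2% of all genes, and 20 were higher and 13 lower with the Foxp3 guide, against 30% and 38.2%.

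Most complex III genes rose. Under all scalings 6 of the 8 members were higher and none lower with either guide: Uqcr10, Uqcrb, Uqcrc1, Uqcrc2, Uqcrfs1 and Uqcrq. Uqcrh went from 585.73 and 575.22 TPM to 462.32 and 451.85 with the control guide, with a log2 change of 0.06 on the TMM scale that was not called and of -0.34 in TPM that was. Uqcrq, a small subunit next to the ubiquinone site (chromosome 11, 53427922 to 53430831), went from 166.46 and 158.87 TPM to 241.99 and 272.42 with the control guide, a log2 change of 1.10 (SE 0.05). With the Foxp3 guide it went from 213.95 and 205.81 TPM to 307.81 and 305.97, a change of 0.86 (SE 0.045). Uqcrfs1, the Rieske iron-sulfur protein, rose by 1.04 (SE 0.042) in control-guide and 0.70 (SE 0.039) in Foxp3-guide cells.

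Complex I had members moving in both directions. With the control guide 8 of its 35 nuclear members (22.9%) were higher and 5 (14.3%) lower under every scaling, against 28.6% and 36.2% of all genes. With the Foxp3 guide 5 (14.3%) were higher and 8 (22.9%) lower, against 30% and 38.2%. All these shares lie below those of all genes. On the TMM scale 24 were called higher and 5 lower with the control guide, and 16 and 10 with the Foxp3 guide. Ndufb6, a membrane-arm accessory subunit, went from 84.92 and 79.59 TPM to 166.03 and 171.09 with the control guide (log2 change 1.45, SE 0.053, adjusted p = 3.1e-18) and from 102.73 and 97.39 to 166.15 and 160.44 with the Foxp3 guide (1.01, SE 0.048). Ndufa12, an accessory subunit of the NADH-oxidizing module, rose by 1.34 and 0.99, and Ndufa5 by 0.93 and 1.07. Ndufa6, another matrix-arm accessory subunit, went the other way, from 315.21 and 303.18 TPM to 128.05 and 134.4 with the control guide (log2 change -0.85, SE 0.048) and from 242.71 and 239.79 to 113.47 and 108.87 with the Foxp3 guide (-0.83, SE 0.046). In each of these genes the groups at 0 h and 3 h did not overlap.

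Further complex I genes that fell with both guides under every scaling included Ndufb10 (log2 change -0.45 in control-guide and -0.61 in Foxp3-guide cells), Ndufb11 (-0.50 and -0.54) and Ndufv3 (-0.55 and -0.60). In complex II, Sdha fell by 0.35 (SE 0.037) and 0.49 (SE 0.036), and its level with the control guide went from 175.34 and 173.33 TPM to 123.6 and 106.55. The other 3 complex II genes were called in neither direction under every scaling with either guide: Sdhb, for example, had a log2 change of 0.32 on the TMM scale and -0.05 in TPM with the control guide. Under every scaling 7 of 17 ATP synthase members (41.2%) rose and none fell with the control guide, against 28.6% and 36.2% of all genes. With the Foxp3 guide 6 (35.3%) rose and 2 (11.8%) fell, against 30% and 38.2%. In TPM 7 were higher and 4 lower with the control guide (all genes 29.8% and 50.1%). With the Foxp3 guide these were 6 and 6 (all genes 31.1% and 49.2%). The largest ATP synthase changes were rises. Atp5b went from 673.97 and 707.3 TPM to 1178.43 and 1190.1 with the control guide (log2 change 1.18, SE 0.041) and from 712.65 and 662.98 to 1116.7 and 1141.92 with the Foxp3 guide (1.09, SE 0.041), and Atp5md, a subunit that links ATP synthase dimers, rose by 1.41 and 1.2.

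**Figure D3:**
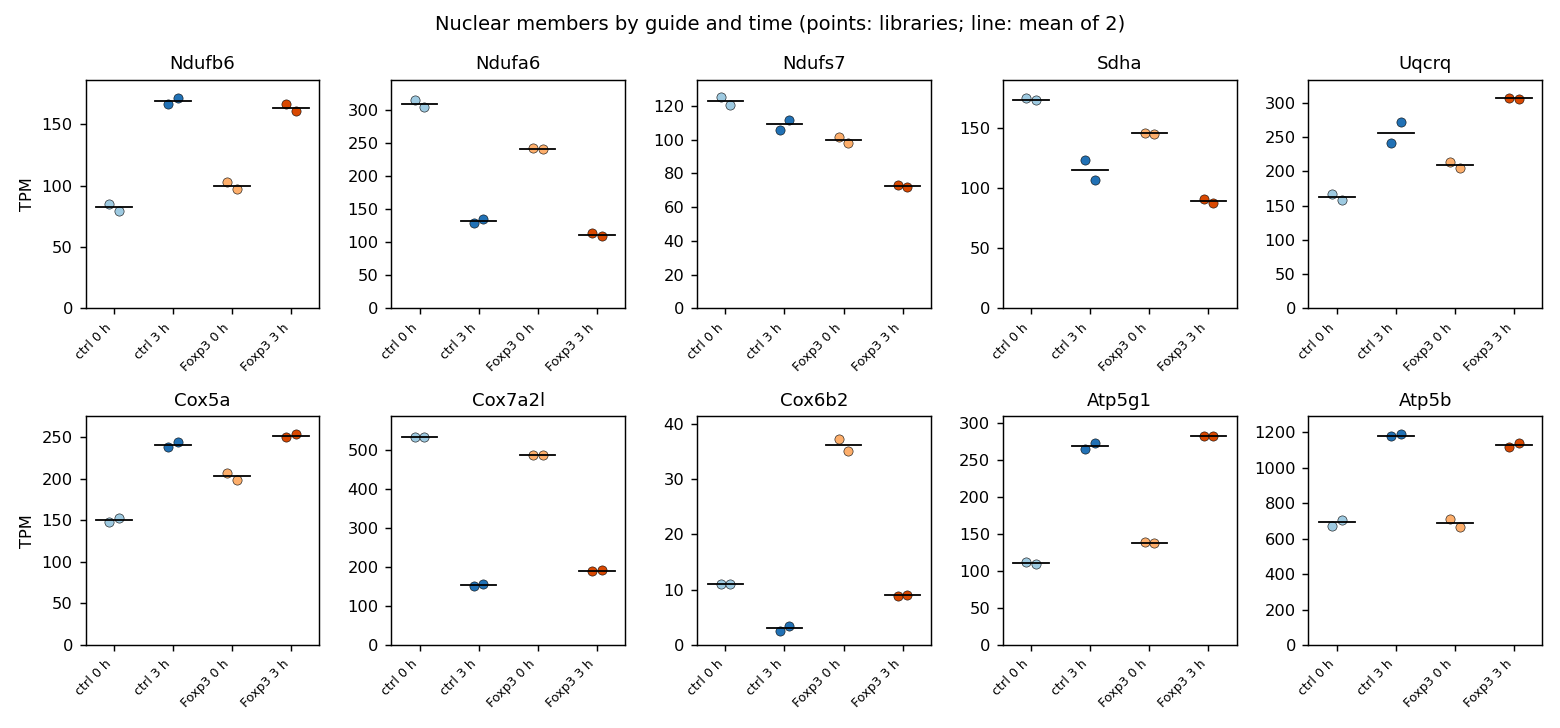
TPM (y axis, from 0) of 10 nuclear members in the 8 libraries, by guide (ctrl, control guide; Foxp3, Foxp3 guide) and time; points are libraries and lines the mean of 2. Ndufb6, Uqcrq, Cox5a, Atp5g1 and Atp5b are higher at 3 h with either guide, Ndufa6, Sdha, Cox7a2l and Cox6b2 are lower, and Ndufs7 is lowest with the Foxp3 guide at 3 h, at 72.97 and 71.86 TPM.

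Some subunits are encoded by several genes, and the balance within 3 such sets shifted with restimulation. Cox6b2, the testis form named above, took 2.80% ± 0.00917 (SD, n = 2) of the summed Cox6b TPM at 0 h and 0.683% ± 0.114 at 3 h with the control guide, and 6.84% ± 0.432 and 1.72% ± 0.0349 with the Foxp3 guide. It fell under every scaling, with log2 changes of -1.41 (SE 0.19) and -1.75 (SE 0.11). The Cox7a proteins form another set. Cox7a2 is the widely expressed complex IV subunit, and Cox7a2l, on chromosome 17 (83501918 to 83517330), its supercomplex-joining relative. Cox7a2l went from 534.56 and 533.28 TPM to 152.6 and 155.56 with the control guide, a log2 change of -1.42 (SE 0.04, adjusted p = 1.2e-20). With the Foxp3 guide it went from 488.31 and 487.36 TPM to 188.71 and 191.54, a change of -1.06 (SE 0.038). Cox7a2 rose from 215.86 and 208.82 TPM to 311.2 and 316.59 and from 257.89 and 256.35 to 322.81 and 341.39. The share of Cox7a2l in the summed TPM of Cox7a2, Cox7a2l and the scarce Cox7a1 went from 71.3% ± 0.526 (SD, n = 2) to 32.7% ± 0.00678 with the control guide and from 65.3% ± 0.118 to 36.2% ± 0.72 with the Foxp3 guide. A share within a library does not depend on the scaling between libraries, and the shifts far exceeded the SD between libraries. No test was run on the shares, since the smallest 2-sided p that an exact permutation test allows with 2 against 2 libraries is 0.333.

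The last set is Atp5g1, Atp5g2 and Atp5g3, which encode the same mature c subunit of the ATP synthase rotor with different import sequences. With the control guide Atp5g1 went from 112.34 and 109.94 TPM to 265.53 and 273.53 (log2 change 1.59, SE 0.046), the largest rise of any nuclear member in that comparison, and with the Foxp3 guide from 139.07 and 137.74 to 283.34 and 282.82 (1.27, SE 0.042). Atp5g3 rose by 1.02 (SE 0.041) and 0.77 (SE 0.039). Atp5g2 went from 305.8 and 314.78 TPM to 227.15 and 248.34, with a log2 change of 0.01 on the TMM scale and -0.38 in TPM, and from 368.2 and 358.13 to 236.52 and 250.64 with the Foxp3 guide, where it fell by 0.29 (SE 0.053) and under every scaling. Of the 3 genes' summed TPM, Atp5g1 took 15.1% at 0 h and 27.2% at 3 h with the control guide and 15.5% and 26.5% with the Foxp3 guide, while Atp5g2 took 42.2% and 24%, and 40.8% and 22.8%. Atp5g2 shares reads with processed pseudogenes, which held 34% to 38% of their joint counts. With the TPM of pseudogenes added to that of their parent genes, the Atp5g2 share was 53.9% at 0 h and 32.4% at 3 h with the control guide. The Atp5g1 share was then 13.6% and 26.6%.

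**Figure D4:**
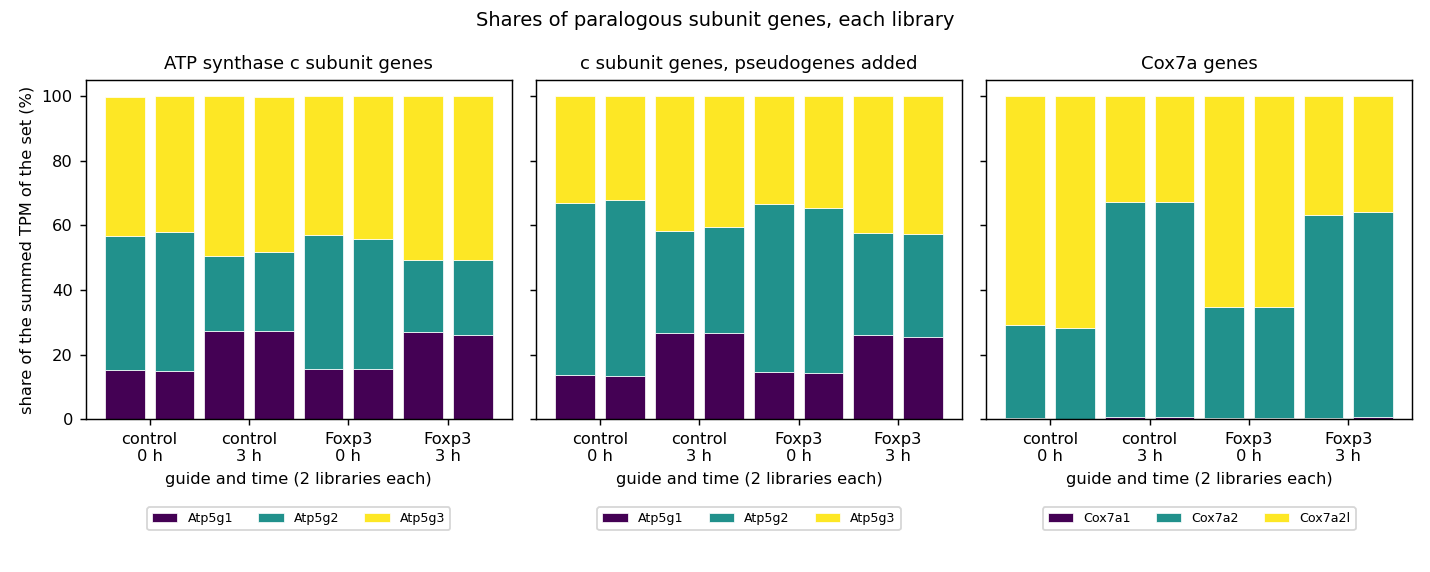
Share (y axis, percent of the summed TPM of the set) of each c subunit gene, of the same genes with pseudogene rows added, and of each Cox7a gene; each bar is a library, 2 for each guide and time. Atp5g1 grows from 15.1% to 27.2% and Cox7a2l shrinks from 71.3% to 32.7% with the control guide, with a like shift in the Foxp3-guide bars.

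The promoters of the 3 c subunit genes are shown because the genes encode the same mature protein yet moved apart. The bases run from 250 to 31 before the RefSeq start (GRCm38.p6, all on the minus strand), at chr11:96075662-96075881, chr15:102671078-102671297 and chr2:73911357-73911576. The Atp5g2 stretch lies inside the gene as GENCODE M21 annotates it, with a start at 102672352. Those of Atp5g1 and Atp5g3 lie at their annotated starts (96075670 and 73911326), so the 3 stretches are not alike in position. Capitals mark matches to any of 5 words searched on both strands.
Atp5g1: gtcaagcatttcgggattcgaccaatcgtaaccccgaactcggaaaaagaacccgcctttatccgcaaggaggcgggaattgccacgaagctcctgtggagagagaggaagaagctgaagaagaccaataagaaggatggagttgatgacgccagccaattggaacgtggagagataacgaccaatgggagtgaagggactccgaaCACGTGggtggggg
Atp5g2: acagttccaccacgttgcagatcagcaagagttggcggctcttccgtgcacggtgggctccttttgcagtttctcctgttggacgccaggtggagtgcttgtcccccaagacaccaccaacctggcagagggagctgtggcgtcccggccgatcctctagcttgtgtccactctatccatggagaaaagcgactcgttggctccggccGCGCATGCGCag
Atp5g3: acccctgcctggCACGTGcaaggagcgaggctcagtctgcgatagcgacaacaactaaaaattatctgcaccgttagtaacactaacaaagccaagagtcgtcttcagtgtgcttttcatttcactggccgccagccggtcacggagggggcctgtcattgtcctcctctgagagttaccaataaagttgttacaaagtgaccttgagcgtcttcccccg
The capitals in Atp5g1 and Atp5g3, the genes that rose, are the E-box word CACGTG, which factors such as Myc bind. The capitals in Atp5g2 are the word of nuclear respiratory factor 1 (NRF1), whose letters vary at 1 position. Atp5g3 also has an NRF1 match, GCGCTTGCGC, read on the other strand, 12 bases after the start and outside the bases printed. A match is only a description of the letters.

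Over the whole set, 67 of 82 nuclear member symbols matched a RefSeq promoter window of 300 bases (250 before to 50 after the start). The NRF1 word was present in 17 of them (25.4%) against 5.19% of 27025 genes, the ETS-family word CCGGAAG in 17 (25.4%) against 9.93%, and the YY1 word AAGATGGC in 9 (13.4%) against 3.19%. The cyclic AMP response word TGACGTCA was in 4 (5.97%) against 2.03%. CACGTG was in 5 (Atp5g1, Atp5g3, Atp5l, Ndufa7 and Ndufv1), or 7.46% against 8.09% of all genes. No word is contained in another. Among members that rose with both guides under every scaling, 14 had a window, of which 2 held CACGTG, 2 the ETS word, 4 the NRF1 word, 1 the cyclic AMP response word and none the YY1 word. Among those that fell, 7 had a window, of which 2 held the NRF1 word and none any other, so no contrast is particular to CACGTG. Neither Cox7a2 nor Cox7a2l held any of the 5 words.

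On the TMM scale the response to restimulation itself differed between the guides for many members, as it did for many of all genes. The difference between the TCR effects was below 0 and called for 51 nuclear members and above 0 for 1 on the TMM scale, and 55 of all 90 members were called, against 44.8% of all genes (17.8% higher and 27.0% lower). The median was -0.24, where that of all genes was -0.09. Under all scalings 14 nuclear members (18.2%) were called lower and 1 (1.3%) higher, against 12.7% and 13.2% of all genes. In TPM 16 were lower and 2 higher, where 35.5% of all genes were called, 17.2% lower and 18.3% higher. The share called in either direction was thus below that of all genes under all scalings and in TPM, and what remained was the direction. This contrast uses the same 8 libraries as the others: members such as Cox5a, Cox6a1 and Ndufc1 started higher with the Foxp3 guide at 0 h and reached nearer levels at 3 h. Cox5a stood at 238.06 and 244.01 TPM with the control guide at 3 h and at 250.15 and 254.24 with the Foxp3 guide, and its difference was -0.45 (SE 0.063, adjusted p = 2.2e-06). The exception was Cox7a2l, whose fall was smaller with the Foxp3 guide (difference 0.35, SE 0.055, adjusted p = 9.2e-06).

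The mitochondrially encoded genes required a check of the counting first. A stretch of nuclear chromosome 1 (24611535 to 24616197, minus strand) carries copies of mitochondrial DNA that are annotated as unprocessed pseudogenes, and 7 of them matched a mitochondrial gene with at least 99% identity over at least 200 bases. In the deposited counts these copies, not the mt- genes, held most reads for several subunits. The copy's share of the joint counts was 98.2% to 99.5% for mt-Co2 (copy Gm28661), 97.0% to 99.5% for mt-Co3, 94.7% to 97.6% for mt-Atp6, 85.4% to 92.6% for mt-Nd3 (copy Gm28438) and 54.6% to 66.7% for mt-Nd4l. It was at most 3.29% for mt-Co1 and 0.00853% for mt-Nd4. The first bases of 2 such pairs, from GENCODE M21 transcripts, are shown because reads from them differ at 1 base or at none. Capitals mark the only difference of Gm28438 from mt-Nd3 over their 345 aligned bases, T3C, counted from the first base of mt-Nd3. The stretches of mt-Co2 and Gm28661 have no capitals because they do not differ.
mt-Nd3: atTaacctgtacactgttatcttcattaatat
Gm28438: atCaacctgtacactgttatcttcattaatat
mt-Co2: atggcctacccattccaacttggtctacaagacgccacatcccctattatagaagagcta
Gm28661: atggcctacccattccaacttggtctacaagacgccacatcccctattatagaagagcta

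As deposited, these genes looked scarce and unstable. mt-Co3 stood at 189.47 and 69.86 TPM with the control guide at 0 h and at 62.07 and 228.75 with the Foxp3 guide, so that the groups overlapped and the log2 change of 0.46 had an SE of 0.99. With the copy's TPM added, mt-Co3 stood at 6727 and 6732 TPM against 7319 and 7720. With the copy's counts added, the log2 change was 0.45 with an SE of 0.041. For mt-Co2 the change with restimulation and the control guide was -1.27 (SE 0.38) as deposited and 0.21 (SE 0.04) with the copy added, so its sign on the TMM scale rests on this step. In TPM it was lower at 3 h also with the copy added, at 7246 and 7017 against 8140 and 8078. Which locus the reads came from cannot be told apart in these tables.

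**Figure D5:**
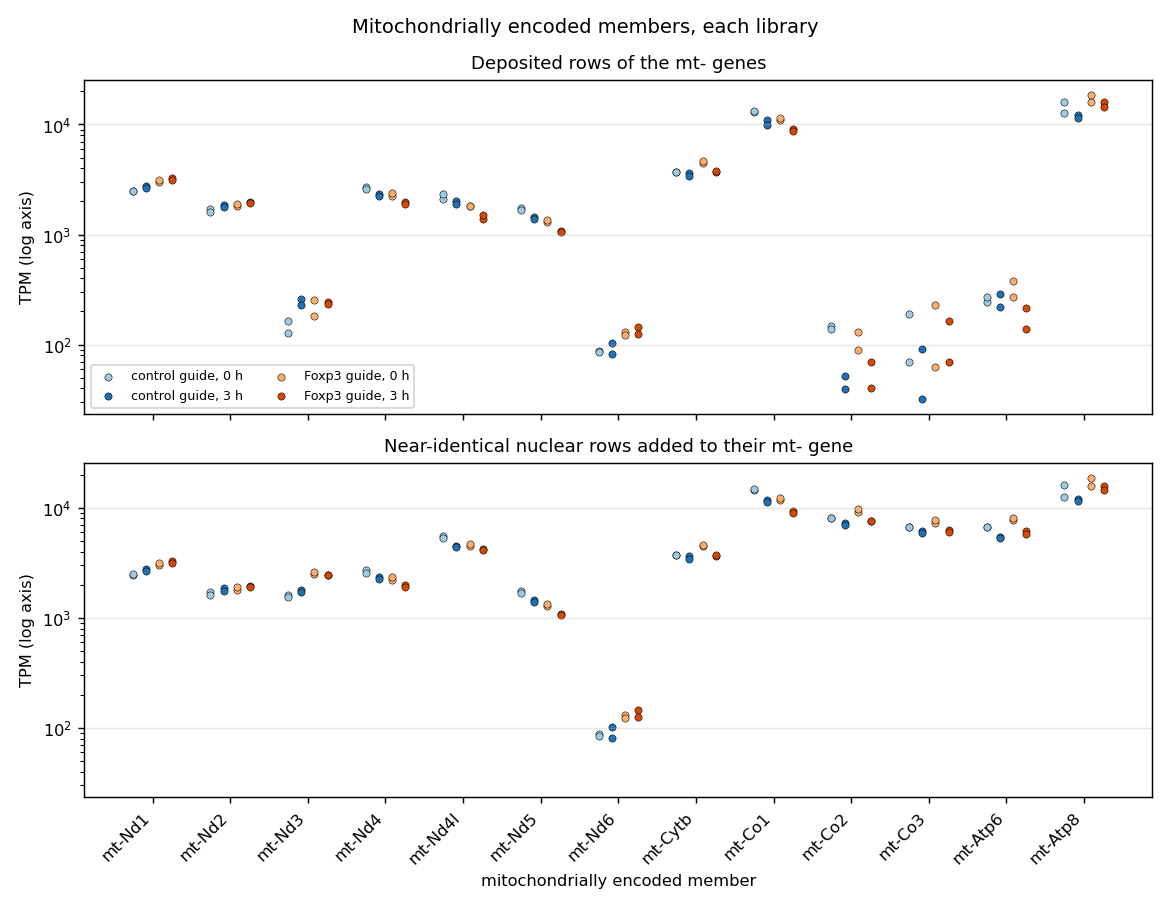
TPM (y axis, log scale) of the 13 mitochondrially encoded genes in each of 8 libraries, as deposited (upper panel) and with near-identical nuclear copies added (lower panel). mt-Co2, mt-Co3, mt-Atp6 and mt-Nd3 reach at most 382.0 TPM as deposited and lie at 1533 TPM or above with the copies added, where the libraries of a group lie closer together.

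On the TMM scale with copies added, the Foxp3 guide went with higher levels of most mitochondrially encoded genes at 0 h. With copies added, 10 of 13 were called higher and 1 lower on the TMM scale (median 0.52), where 63.4% of all genes were called (34.3% higher), and at 3 h 9 were higher and 1 lower (median 0.29), where 61.6% were called. As deposited the counts were 6 and 1, and 5 and 1, and in TPM as deposited 5 higher and 4 lower at 0 h and 2 higher and 4 lower at 3 h. No calls were made in TPM with copies added. By those levels mt-Nd1, mt-Nd2, mt-Nd3, mt-Nd6, mt-Cytb, mt-Co2 and mt-Atp6 were higher with the Foxp3 guide at both times without overlap. mt-Nd4, mt-Nd4l, mt-Nd5 and mt-Co1 were lower at both times, so the direction was not one-sided in TPM. mt-Co3 was higher without overlap only at 0 h, and mt-Atp8 only at 3 h. mt-Nd3, a complex I subunit, rose most: with copies added it went from 1612 and 1533 TPM to 2484 and 2587 at 0 h, a log2 change of 1.04 (SE 0.037). mt-Cytb, the core of complex III, has no near-identical copy and went from 3701.82 and 3687.82 TPM to 4455.33 and 4609.38 (0.57, SE 0.043). mt-Nd1 went from 2474.64 and 2481.02 TPM to 3024.65 and 3156.75 (0.60, SE 0.041). mt-Nd6, the only protein encoded on the other strand, rose by 0.86 (SE 0.13).

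Genes of the same genome did not move together. mt-Nd5 had a log2 change of -0.10 (SE 0.043) at 0 h and -0.21 (SE 0.043) at 3 h, was called lower under every scaling both times, and went from 1755.04 and 1667.41 TPM to 1291.75 and 1344.88 at 0 h. mt-Nd4 and mt-Co1, the catalytic subunit of complex IV, were not called on the TMM scale (0.08 and 0.06 at 0 h), and both were called lower in TPM (-0.20 and -0.21). The count of mt-Nd1 per count of mt-Nd5, a ratio that no scaling moves and that was chosen after the values were seen, was 0.654 and 0.696 with the control guide at 0 h and 1.10 in both Foxp3-guide libraries. At 3 h it was 0.899 and 0.895 against 1.43 and 1.39. The 4 groups did not overlap in this ratio.

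Changes of the mitochondrially encoded genes with restimulation were small. With copies added, 11 were called higher and none lower with the control guide (median 0.23), where 81.8% of all genes were called, and 5 higher and 1 lower with the Foxp3 guide (median 0.05), where 85.4% were called (40.8% higher and 44.6% lower). The difference between these effects was below 0 and called for 7 of the 13 and above 0 for none, where 27.1% of all genes were called lower and 17.7% higher. As deposited, mt-Nd1, mt-Nd2 and mt-Nd3 were higher and mt-Co2 lower with the control guide under every scaling, and none was called under every scaling with the Foxp3 guide. As deposited, the medians of the 13 genes were 0.29 and 0.01 on the TMM scale and -0.17 and -0.25 in TPM, so the direction of the group as a whole turns with the scale.

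The ratio of the 2 genomes within a library does not depend on scaling. The log2 ratio of summed mitochondrially encoded to summed nuclear TPM was 1.52 and 1.43 with the control guide at 0 h, 1.25 and 1.11 at 3 h, 1.31 and 1.45 with the Foxp3 guide at 0 h, and 1.24 and 1.12 at 3 h. It was lower at 3 h with either guide, by 0.29 for the control guide and 0.20 for the Foxp3 guide, without overlap between times. The guides differed by -0.09 at 0 h and 0.00 at 3 h, with overlapping libraries. At 0 h the guide difference was -0.16 without Foxp3-guide replicate 2, -0.14 without control-guide replicate 2, -0.05 without control-guide replicate 1 and -0.02 without Foxp3-guide replicate 1. The difference between times in Foxp3-guide cells was -0.13 without their 0 h replicate 2. From summed counts as deposited the guides did not overlap at 0 h, at 1.83 and 1.81 against 1.60 and 1.67. Nor did they at 3 h, at 1.59 and 1.45 with the control guide against 1.42 and 1.35 with the Foxp3 guide. From counts with copies added the ratios were 2.29 and 2.28 against 2.14 and 2.22 at 0 h. At 3 h they were 2.04 and 1.94 against 1.94 and 1.88, so that the guides met at 1.94. From TPM with copies added the ratios, in the order first given, were 2.22 and 2.16, 1.95 and 1.84, 2.07 and 2.19, and 1.95 and 1.85. No test is given, because an exact permutation test of 2 against 2 libraries cannot go below a 2-sided p of 0.333. mt-Atp8, whose transcript is very short and whose TPM of 11498.5 to 18553.02 is therefore uncertain, weighs on this sum. Without it the TPM ratios as deposited were 0.87 and 0.89, 0.70 and 0.54, 0.64 and 0.71, and 0.49 and 0.41. There the guides no longer overlapped at either time, but the ratio without mt-Atp8 was not computed with copies added.

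Other genes of the pathway, were counted from lists chosen by function, with the same call rule. Among all genes tested 40.9% were called higher on restimulation of control-guide cells and 40.8% on that of Foxp3-guide cells, and 81.8% and 85.4% in either direction (29.8% and 31.1% higher in TPM). Whether these lists differ from the subunits was not tested. Of 78 mitochondrial ribosomal protein genes, which translate the mitochondrially encoded subunits, 68 rose and 5 fell with the control guide (median log2 change 0.92) and 64 rose and 9 fell with the Foxp3 guide (0.63), led by Mrps6 (2.80 and 3.11). In TPM the counts were 57 and 13, and 52 and 16. Of 28 genes for maintenance and transcription of mitochondrial DNA, 23 rose and 4 fell, and 22 rose and 2 fell, with medians of 1.09 and 1.3 (0.70 and 0.94 in TPM). Top1mt, the mitochondrial topoisomerase, rose by 2.90 and 3.21. Of 47 assembly factors 30 rose and 9 fell, and 27 rose and 12 fell (24 and 15, and 25 and 15, in TPM). Ndufaf4, a complex I assembly factor, rose by 3.43 and 3.93 from means of 8.14 and 4.93 TPM, Sco2, a copper chaperone of complex IV, rose by 3.14 and 3.26, and Tmem126b, which helps build the membrane arm of complex I, fell by 2.14 and 2.64.

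Among the 16 tested subunits and carriers outside the symbol rule 13 rose and 3 fell with either guide, against the same shares of all genes. Cycs, cytochrome c, rose by 2.75 (SE 0.044) and 2.71 (SE 0.042), from means of 34.6 and 32.7 TPM to 210 and 177, a larger log2 change than any described above for a member. Of 12 nuclear regulators 8 rose and 2 fell with the control guide and 9 rose and 1 fell with the Foxp3 guide. Myc, a transcription factor for many mitochondrial genes, went from a mean of 43.8 TPM to 883 with the control guide and from 6.98 to 681 with the Foxp3 guide. Its guide effect at 0 h was -2.39 (SE 0.054), and that of Pprc1, a coactivator related to PGC-1, was -1.41 (SE 0.064). Of 19 tricarboxylic acid cycle genes 14 rose and 1 (Suclg2, log2 change -0.73) fell with the Foxp3 guide at 0 h, and in TPM 5 rose and 10 fell. Among all genes 63.3% were called, 34.2% higher and 29.1% lower (17.5% and 45.2% in TPM). In that comparison 58 of 78 mitochondrial ribosomal protein genes were higher and 4 lower (20 and 20 in TPM). Of 47 assembly factors 24 were higher and 7 lower (5 and 14). Of 28 genes for mitochondrial DNA 4 were higher and 11 lower (3 and 21), and of 12 nuclear regulators 3 and 8 (0 and 9). Of 16 subunits and carriers 7 were higher and 2 lower (3 and 6), and of 13 uncoupling and oxidant defence genes 6 and 3 (2 and 5). Ucp2, the uncoupling protein, was higher with the Foxp3 guide by 0.54 at 0 h and 1.05 at 3 h, and Gpx4, an enzyme that reduces lipid peroxides, fell with restimulation by 2.11 and 2.27.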

How the data were processed

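The authors deposited 1 table of RSEM expected counts and 1 of TPM, each with 8 libraries as columns and 55665 genes. The submitters' processing notes name Trim Galore 0.6.3, STAR 2.7.9a, RSEM 1.3.1 and the build mm10 (GRCm38), and the labels call the libraries stranded. The annotation release is not given in the sources used here, and GENCODE M21 matched 55180 of the 55665 gene IDs. No column was left without a sample.

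Expected counts, as deposited, were rounded to whole numbers. Genes passing filterByExpr (16642) were scaled with TMM and tested over all 8 libraries in 1 model of 4 groups with edgeR 4.0.16 (quasi-likelihood, Benjamini-Hochberg, R 4.3.3), giving 4 residual degrees of freedom and a biological coefficient of variation of 3.41%. The TPM the authors deposited were tested as log2(TPM + 1) with limma 3.58.1, where the pseudocount lowers the fold change of scarce genes. DESeq2 1.42.0, other scalings, filters and thresholds, a replicate block and leaving out each library were alternatives. The script was tested on simulated data. Replicates of a group differed by more than sampling noise (chi-square per gene 4.38 to 7.11).

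BLAST 2.17.0 found genes with at least 99% identity over at least 200 bases to a member. Besides the mitochondrial copies, 13 nuclear members (the untested Atp5o entry included) had such a match, and for 9 it held over 5% of the joint counts in a library. Adding these rows, or leaving mt-Atp8 out of the genome ratio, was chosen after the data were seen.

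The members, the lists and the tests were chosen with earlier results of these data known. Nuclear members were named by rule: up to 3 per complex and comparison with the largest log2 change among those called, with mean log2 CPM of at least 3 and groups that did not overlap; all called against the majority; paralog sets; and the 3 most and least abundant of each complex. For the difference between TCR effects the 10 largest were named, and of the other lists up to 4 genes per comparison. The text gives a selection of the changes the rule names, and 1 of them is not reported here. Promoters are from RefSeq (GRCm38.p6).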

Additional observations from a re-analysis of the deposited data

Results flagged for a closer look

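The effect of restimulation differed between the guides by a test of the difference itself (edgeR's quasi-likelihood test) for the 10 members named here. The log2 difference, Foxp3 guide minus control guide, was -0.45 for Cox5a, -0.44 for Ndufb6, -0.43 for Ndufc1, -0.40 for Ndufs7, -0.40 for Atp5mpl, -0.39 for Cox6a1, -0.37 for Cox7c, 0.35 for Cox7a2l, -0.35 for Ndufa12 and -0.34 for Uqcrfs1. On the TMM scale the others than Cox7a2l and Ndufs7 rose with restimulation under either guide and less so under the Foxp3 guide, while in TPM Cox6a1 had changes of 0.13 and -0.14 in control-guide and Foxp3-guide cells. Ndufs7 had log2 changes on the TMM scale of 0.21 in control-guide cells and -0.19 in Foxp3-guide cells (-0.18 and -0.45 in TPM). The difference of Ndufa12 was not called in TPM (-0.23, adjusted p = 0.064 in limma), while the other 9 were called under all 7 scalings. Groups of 2 libraries were not searched for single outlying libraries.

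The nuclear copies of mitochondrial genes, which are no members, held many counts. The 7 near-identical copies together had 296132 and 330266 counts with the control guide at 0 h, 339283 and 323551 at 3 h, 643190 and 648686 with the Foxp3 guide at 0 h, and 438648 and 749160 at 3 h. These are raw counts in libraries of unequal depth. As a share of each library they were 0.698% to 1.01%, and whether the reads came from the nuclear or the mitochondrial locus was not tested.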

How the results depend on the processing

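Of 90 named changes, 74 kept their direction and call under every alternative run. Calls of members for the guide at 3 h numbered 66, but 43 on log2(TPM + 1), 42 on log2(TPM + 0.1), 37 without a filter on TPM and 35 at a fold of at least 1.2. Calls for the difference between TCR effects numbered 55, but 35 with RLE, 34 with upper-quartile scaling, 26 with DESeq2, 19 with either pseudocount on TPM, 13 on unfiltered TPM, 36 at an adjusted p below 0.01 and 27 at a fold of at least 1.2. The nuclear median for the guide at 0 h (0.43) was 0.37 with RLE and DESeq2, 0.35 with upper quartile, 0.32 on the library total, 0.33 on the total outside the members, 0.14, 0.15 and 0.14 in TPM, 0.46 unfiltered, and 0.40 with at least 1 CPM in every library or with only 4 libraries. At 3 h (0.22) it was 0.13 on both totals and 0.02 in TPM. For restimulation with the control guide (0.38) it was 0.14 with upper quartile, 0.07 on both totals, 0.29 with at least 1 CPM and -0.02 in TPM. With the Foxp3 guide (0.16) it was 0.21 with RLE and DESeq2, 0.07 with at least 1 CPM, -0.01 with upper quartile and -0.14 on both totals and in TPM. For the difference (-0.24) it was -0.17 with RLE and upper quartile, -0.18 with DESeq2, and -0.12 and -0.13 in TPM. The mitochondrially encoded median was 0.17 in TPM for the guide at 0 h (0.46). At 3 h (0.27) it was 0.18 on the library total, 0.07 in TPM and 0.37 over genes without a copy. For restimulation with the control guide (0.29) it was 0.05 with upper quartile, -0.02 and -0.03 on the totals, -0.17 in TPM and 0.41 over genes without a copy. With the Foxp3 guide (0.01) it was -0.16 with upper quartile, -0.29 on both totals, -0.25 in TPM, -0.03 unfiltered, -0.08 with at least 1 CPM and 0.20 over genes without a copy. The log2 genome ratio for the guide at 3 h (0.00) was -0.14 from counts, -0.17 without mt-Atp8 and 0.00 with copies added, where its sign turned before rounding. Signs turned in TPM for Sdhc and the guide at 0 h (-0.06), Sdhb and the guide at 3 h (-0.03), and Sdhc (-0.10) and Sdhb (-0.05) with restimulation and the control guide. With the Foxp3 guide Sdhc was -0.02 with upper quartile, -0.14 and -0.15 on the totals and -0.19 in TPM. The cause of these shifts was not tested.

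Leaving out 1 library at a time gave 73 to 78 calls for the guide at 0 h, 60 to 66 at 3 h, 71 to 78 and 58 to 67 for restimulation, and 39 to 57 for the difference. Nuclear medians ran from 0.41 to 0.47, 0.19 to 0.27, 0.35 to 0.43, 0.15 to 0.22 and -0.29 to -0.18 in that order, and mitochondrially encoded medians from 0.42 to 0.56, 0.11 to 0.28, 0.26 to 0.31, -0.04 to 0.09 and -0.20 to -0.09. The lone values 0.11 and -0.04 were without Foxp3-guide 3 h replicate 1 and 0 h replicate 1. The genome ratio ran from -0.16 to -0.02 for the guide at 0 h, -0.07 to 0.07 at 3 h, and -0.36 to -0.22 and -0.27 to -0.13 for restimulation. A lone library left in a group is assumed to vary like the others. Same-numbered replicates were not treated as paired. Their deviations from the group means showed no shared effect (correlations -0.0757 to 0.00947), which cannot tell whether they came from 1 culture or animal. With replicate number as a block the calls numbered 77, 66, 77, 62 and 54, and of the named changes 1 was lost, Ndufv2 for the guide at 3 h (adjusted p = 0.052 in edgeR). The 6 members not tested had at most 2 counts in all, and no change in them was detectable at this depth.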
